A study of Mus musculus with 6 samples.

Results

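The 8 genes described here encode carriers, and subunits of carriers, that move amino acids across the membranes of nephron cells. They were taken by name from the kidney count table, and all 8 were found there among 31053 genes. Slc6a19 and Slc6a18 are carriers of neutral amino acids on the luminal membrane. Slc3a1 is the heavy chain of the luminal cystine carriers, and Slc7a9 and Slc7a13 are light chains that pair with it. Slc3a2 is the heavy chain of exchangers that include those on the blood side of the cell, and Slc7a7 and Slc7a8 are light chains that pair with it.

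The study compared ways of taking solid tissue apart for single-cell RNA sequencing. Minced tissue was digested with type I collagenase either in a conventional tube for 60 min, the control, or in a microfluidic platform that released cells by 15 min and again by 60 min. Kidneys came from male C57BL/6 mice aged 12 weeks, and mammary tumors from female MMTV-PyMT mice aged 10 weeks, in which the mouse mammary tumor virus promoter drives the polyoma middle T oncogene. All 6 libraries were made from cells sorted as live by exclusion of SytoxBlue, with 1 library per tissue and condition. Per the study, the conditions of a tissue came from the same source mouse. There are no replicates, and dissociation, collection time and library cannot be told apart. The 3 kidney libraries are given below in the order control 60 min, platform 15 min and platform 60 min.

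These libraries held 8233, 12082 and 13719 deposited cells with 69691783, 116998401 and 112969440 unique molecular identifiers (UMIs, counted transcript molecules). After limits on detected genes and mitochondrial share, 5886, 8390 and 9936 cells were kept, with 33644880, 61434200 and 52338873 UMIs. Median depth of the kept cells was 5071, 6612 and 4583 UMIs. Mitochondrially encoded genes took 12.1%, 21.6% and 13.7% of kept UMIs, the highest share being in the platform 15 min library. Of the kept barcodes, 89 were shared between pairs of kidney libraries.

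The proximal tubule takes back nearly all amino acids from the filtrate, through carriers on its luminal brush border and an exit step on the blood side. Light chains of the Slc7 family named here reach the membrane bound to a heavy chain, Slc3a1 on the luminal side and Slc3a2 on the blood side. In people, loss of Slc3a1 or Slc7a9 causes cystinuria, loss of Slc7a7 causes lysinuric protein intolerance, and loss of Slc6a19 causes Hartnup disorder.

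Cells were placed in 14 gates by marker genes, none of which is among the 8 carriers. The proximal tubule gate held 3010, 7195 and 2937 cells, or 51.1%, 85.8% and 29.6% of kept cells. Its markers fitted the label: Slc34a1, a luminal phosphate carrier, had a UMI in 98.2% of these cells and Lrp2, an endocytic receptor, in 83.2%. Proximal cells were divided further by segment. S1, the first stretch after the glomerulus, held 722, 2170 and 1124 cells, of which 92.3% had a UMI of the glucose carrier Slc5a2. S3, the last and straight stretch, held 790, 1836 and 575 cells. The S3 gate rested mostly on Acsm3 and Atp11a, with a UMI in 97.2% and 82.2% of its cells, while its other markers were found in 3.00% to 11.4%. A middle gate of 346, 951 and 263 cells rested on the organic anion carriers Slc22a6 and Slc22a8. The remaining marker of its list, Slco4c1, was at 0 there, so the gate is given no segment name. A further 4365 proximal cells fell in no segment, and 1406 proximal cells (10.7%) lay within 0.1 of the segment margin. The distal nephron gate joined thick ascending limb, distal convoluted and connecting tubule, principal and intercalated cells, and held 291, 114 and 592 cells.

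Levels below are pooled UMIs of a gene per 1000000 UMIs of the same cells (CPM). They come from the 3′ ends of transcripts and are not divided by length, so they compare 1 gene between cells and not different genes. Intervals on levels are exact Poisson 95% intervals and those on ratios are exact conditional 95% intervals. Both cover counting error only.

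The carriers split along the proximal tubule. Slc6a19, Slc7a7, Slc7a8, Slc7a9 and Slc3a2 were higher in S1 than in S3 cells by more than 2-fold in each kidney library, and Slc6a18 and Slc7a13 were higher in S3 than in S1 cells by more than 2-fold in each. That makes 7 of 8 carriers past 2-fold in the same direction in the 3 libraries, against 10.8% of the 7958 genes measured, of which 512 were higher in S1 and 344 in S3. The median log2 ratio of S1 over S3 was 2.31 over the 8 carriers and 0.23 over all genes measured. Slc3a1 was the exception, with higher levels in S3 in each library and a ratio past 2-fold in the platform 60 min library alone.

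**Figure D1:**
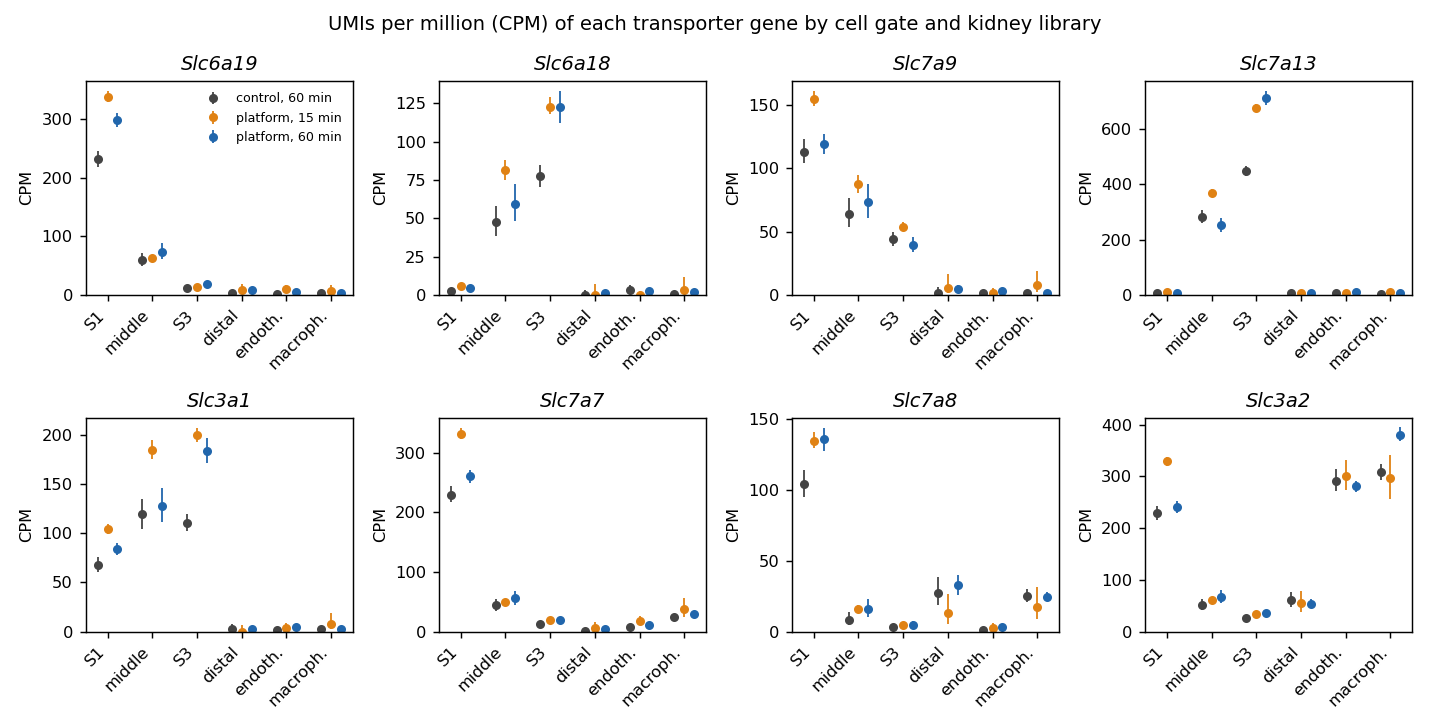
Level of each of the 8 carriers (vertical axis, CPM, from 0) in S1, middle, S3, distal nephron, endothelial and macrophage cells (horizontal axis) for the control 60 min, platform 15 min and platform 60 min kidney libraries, with exact Poisson 95% intervals as bars. Slc6a19, Slc7a7 and Slc7a8 are highest in S1 cells, Slc7a13 and Slc6a18 in S3 cells, and Slc3a2 is also high in endothelial cells and macrophages.

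Among the luminal carriers of neutral amino acids, the level of Slc6a19 in S1 cells was 232, 338 and 299 CPM, with intervals of 218 to 246, 329 to 348 and 287 to 311. In the middle gate it was 59.2, 62.6 and 73.2, and in S3 cells 11.4, 12.9 and 17.9. Slc6a19 therefore stood highest in S1, lower in the middle gate and lowest in S3, with no overlap of the intervals between the 3 gates in any library. The ratio of S1 over S3 was 20.4, 26.3 and 16.6, with intervals of 15.8 to 26.7, 22.9 to 30.4 and 13.3 to 21.2. Slc6a18, its neighbor in the genome and a carrier of glycine and alanine, ran the other way. Its level was 2.52, 5.59 and 4.52 CPM in S1 cells, 47.8, 81.3 and 59.4 in the middle gate and 77.4, 123 and 123 in S3 cells. The S1 values of Slc6a18 rested on 12, 87 and 35 UMIs, and each lay below the middle and S3 values of the same library without overlap. Slc6a18 was higher in S3 than in S1 cells by 30.7, 22.0 and 27.1-fold, with intervals of 17.4 to 59.8, 17.7 to 27.6 and 19.3 to 39.4.

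The balance of the 2 carriers turned over between the ends of the tubule. For each UMI of Slc6a19, S1 cells held 0.0109, 0.0165 and 0.0151 UMIs of Slc6a18. In the middle gate the figure was 0.807, 1.30 and 0.812, and in S3 cells it was 6.81, 9.56 and 6.83. These are ratios of UMIs, read between gates and not as the molar ratio of the proteins. The part of free RNA in the low levels, Slc6a18 in S1 and Slc6a19 in S3, was not tested. The same holds for the folds between S1 and S3 above.

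Of the luminal cystine carriers, Slc3a1, the heavy chain, was at 68.1, 104 and 83.6 CPM in S1 cells, 119, 185 and 128 in the middle gate and 110, 200 and 184 in S3 cells. S1 was lowest in each library with no overlap of intervals. The middle gate and S3 had overlapping intervals in the control, at 104 to 135 and 102 to 119, and in the platform 15 min library, at 175 to 195 and 193 to 207. S3 over S1 ratios of Slc3a1 were 1.62, 1.93 and 2.20, with intervals of 1.41 to 1.85, 1.82 to 2.05 and 1.98 to 2.45. Slc7a9, the light chain for cystine and basic amino acids, was at 113, 155 and 119 CPM in S1 cells, 64.2, 87.3 and 73.2 in the middle gate and 44.0, 53.7 and 39.4 in S3 cells. The order S1, middle, S3 of Slc7a9 levels held in each library, without overlap of intervals between neighboring gates. The S1 over S3 ratio of Slc7a9 was 2.56, 2.89 and 3.01, with intervals of 2.20 to 2.99, 2.67 to 3.13 and 2.56 to 3.57, the smallest of the 5 carriers called higher in S1.

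Slc7a13, the light chain that carries cystine, aspartate and glutamate, had the highest ratio between S1 and S3 of the 8 carriers in each library. Its level was 6.52, 9.90 and 7.87 CPM in S1 cells, on 31, 154 and 61 UMIs. In the middle gate it was 283, 367 and 251 and in S3 cells 447, 676 and 711. The 3 gates did not overlap in any library, and the platform libraries had the higher S3 levels. S3 levels of Slc7a13 exceeded S1 levels by 68.5, 68.3 and 90.4-fold, with intervals of 48.2 to 101, 58.3 to 80.7 and 70.2 to 118. The share of S1 cells with a Slc7a13 UMI, given among the shares of cells, could not be separated from that of T cells, and the part of free RNA in the S1 level, and so in these folds, was not tested.

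The balance of the light chains beside Slc3a1 therefore shifted between the gates, again read as ratios of UMIs and not of proteins. For each UMI of Slc7a9 there were 0.0577, 0.0638 and 0.0663 UMIs of Slc7a13 in S1 cells. The corresponding figure was 4.41, 4.20 and 3.43 in the middle gate and 10.1, 12.6 and 18.1 in S3 cells. Against the heavy chain, Slc7a9 went from 1.66, 1.5 and 1.42 UMIs per UMI of Slc3a1 in S1 to 0.4, 0.268 and 0.214 in S3. Slc7a13 went from 0.0957, 0.0954 and 0.0941 UMIs per UMI of Slc3a1 in S1 to 4.06, 3.38 and 3.86 in S3.

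On the blood side, Slc7a7, which exchanges basic for neutral amino acids, was at 230, 332 and 261 CPM in S1 cells, with intervals of 217 to 244, 323 to 342 and 249 to 272. It was at 43.8, 49.4 and 55.7 in the middle gate and at 12.8, 18.8 and 18.9 in S3 cells. The order S1, middle, S3 held in each library without overlap. Slc7a7 was higher in S1 than in S3 by 18.0, 17.7 and 13.8-fold, with intervals of 14.2 to 23.2, 15.7 to 20 and 11.1 to 17.5. Slc7a8, an exchanger of neutral amino acids, was at 104, 135 and 136 CPM in S1 cells, 8.46, 15.6 and 15.6 in the middle gate and 3.20, 4.92 and 4.66 in S3 cells. Intervals of S1 overlapped neither other gate in any library, those of the middle gate and S3 overlapped in the control, and the S3 values rested on 18, 78 and 20 UMIs. The Slc7a8 ratio of S1 over S3 was 32.6, 27.5 and 29.1, with intervals of 20.4 to 55.4, 21.9 to 34.9 and 18.8 to 47.9. The part of free RNA in the S3 levels of Slc7a7 and Slc7a8, and so in these folds, was not tested. Slc3a2, their heavy chain, was at 229, 329 and 241 CPM in S1 cells, 51.3, 61.0 and 66.3 in the middle gate and 26.3, 34.2 and 35.4 in S3 cells. Its S1 over S3 ratio was 8.71, 9.62 and 6.81, with intervals of 7.33 to 10.4, 8.80 to 10.5 and 5.77 to 8.09.

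The blood-side heavy chain and light chains thus shared a direction along the tubule, with different slopes. For each UMI of Slc3a2, S1 cells held 1.01, 1.01 and 1.08 UMIs of Slc7a7 and S3 cells 0.486, 0.549 and 0.533. The same figure for Slc7a8 was 0.455, 0.411 and 0.563 in S1 cells and 0.122, 0.144 and 0.132 in S3 cells.

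The segment with the highest level was the same in the 3 libraries for 7 of 8 carriers, S1 for 5 of them and S3 for 2, and for 56.8% of 8268 genes measured in these gates, S1 for 3384 of those and S3 for 1035. Slc3a1 was highest in the middle gate in the control and in S3 in both platform libraries, so without the control the count is 8 of 8, against 73.5% of all genes.

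Shares of cells with a UMI followed the same split. These shares depend on depth, so each cell was also thinned to 1000 UMIs, which left out 38 S1, 17 S3 and 7 T cells with fewer. Median depth before thinning was 6633 UMIs in S1, 7502 in S3 and 5191 in T cells, which serve as a cell type that should lack the kidney carriers. Slc6a19 was found in 72.8% of cells (24.9% after thinning) in S1, in 8.81% of cells (1.35% after thinning) in S3 and in 3.15% of cells (0.829% after thinning) among T cells. For Slc7a13 the shares were 4.01% of cells (1.03% after thinning) in S1, 86.2% of cells (42.0% after thinning) in S3 and 3.28% of cells (0.829% after thinning) among T cells. After thinning, the Slc7a13 shares of S1 and T cells had overlapping exact Clopper-Pearson intervals, of 0.741% to 1.40% and 0.305% to 1.80%, so a difference between them was not detectable at this depth. Slc6a18 was found in 2.91% of cells (0.377% after thinning) in S1, in 47.4% of cells (10.4% after thinning) in S3 and in 0.547% of cells (0.138% after thinning) among T cells. After thinning its S1 interval of 0.211% to 0.621% overlapped the T cell interval of 0.00350% to 0.767%, while before thinning the shares stood apart. Kap, an androgen-regulated transcript that is very abundant in proximal cells, was also higher in S1 than in T cells, at 4506 and 804 CPM pooled over the libraries. Slc3a1 was found in 41.6% of cells (9.63% after thinning) in S1, in 62.6% of cells (16.2% after thinning) in S3 and in 0.958% of cells (0.276% after thinning) among T cells.

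Heavy and light chains were also counted in the same cells, with thinning and T cells added after the data were seen. UMIs of both Slc3a1 and Slc7a9 were in 26.6% of cells (1.48% after thinning) in S1, 22.3% of cells (0.879% after thinning) in S3 and 0% of cells (0% after thinning) among T cells. Slc3a1 and Slc7a13 were together in 2.39% of cells (0.201% after thinning) in S1, 58.6% of cells (8.48% after thinning) in S3 and 0.137% of cells (0% after thinning) among T cells. On the blood side, Slc3a2 and Slc7a7 were together in 59.8% of cells (6.61% after thinning) in S1, 3.72% of cells (0.0628% after thinning) in S3 and 1.23% of cells (0.138% after thinning) among T cells, which hold Slc3a2 themselves. For Slc3a2 and Slc7a8 the shares were 40% of cells (3.75% after thinning), 1.06% of cells (0.0314% after thinning) and 0.821% of cells (0.138% after thinning). After thinning, the S3 shares of the blood-side pairs rested on 2 and 1 cells and were no higher than those of T cells.

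Some S3 cells carried S3 markers other than Acsm3 and Atp11a. These markers also count toward placing a cell in the S3 gate, and the part of that in the ratios below was not tested. After the data were seen, S3 cells with at least 1 UMI of Cyp7b1, Slc22a13, Slc22a19 or Serpina1f (58, 273 and 149 cells) were set against the remaining S3 cells (732, 1563 and 426). Slc7a13 was at 807, 839 and 1075 CPM in the marked cells, with intervals of 728 to 893, 804 to 875 and 1017 to 1135, and at 414, 645 and 571 in the others, with intervals of 397 to 432, 631 to 659 and 545 to 598. It was higher in the marked cells without overlap, by 1.95-, 1.30- and 1.88-fold, and Slc3a1 by 1.95-, 1.40- and 1.90-fold. Slc6a18 was higher there by 2.25-, 1.20- and 1.68-fold. Slc7a9 was at 1.24-, 1.03- and 1.12-fold. The ratios of Slc6a19 were 0.356, 0.826 and 0.791, that of the control on 2 UMIs in the marked cells, and its intervals overlapped in each library. The ratios of Slc3a2 were 0.801, 1.01 and 1.02, and those of Slc7a7 were 1.38, 1.47 and 0.448. Slc7a8 had no UMI in the marked cells of the control, and ratios of 1.55 and 0.646 in the platform libraries. The marked cells were also deeper, with a median of 8589 against 7398 UMIs, and the part of depth in these ratios was not tested.

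Outside the proximal tubule, 6 of the 8 carriers were lower by more than 2-fold in distal nephron cells in each library. Of 9466 genes measured, 12.6% were lower in distal nephron cells by more than 2-fold in each library, and 28.2% passed 2-fold in either direction (1188 higher in proximal cells and 1486 lower). The 6 were Slc6a19, Slc6a18, Slc7a7, Slc7a9, Slc7a13 and Slc3a1. Their distal levels ran from 0 to 8.71 CPM, on 0 to 23 UMIs per library. Slc6a19, for example, was at 86.5, 125 and 155 CPM in all proximal cells and at 3.32, 7.40 and 8.71 in distal nephron cells. Its proximal over distal ratio was 26.0, 17.0 and 17.8, with intervals of 10.1 to 95.7, 6.62 to 62.3 and 11.8 to 28.1. Slc6a18 had no UMI in distal cells of the control and platform 15 min libraries, and against a floor of 3 counts per library it was at least 17.0-fold and at least 13.1-fold higher in proximal cells. In the platform 60 min library it had 3 distal UMIs and a ratio of 40.2, with an interval of 13.7 to 195. Slc3a1 had no distal UMI in the platform 15 min library and was at least 29.4-fold higher in proximal cells there. The remaining ratios of Slc7a7, Slc7a9, Slc7a13 and Slc3a1 lay between 16.9 and 67.6. The median log2 ratio of proximal over distal was 4.84 over the 8 carriers and -0.35 over all genes measured.

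Abundant proximal transcripts were read beside these carriers for free RNA. Pooled over the libraries, Kap stood in distal nephron cells at 1.48% of its proximal level and in T cells at 1.36%, Miox at 2.62% and 2.26%, and Gpx3 at 6.18% and 3.73%. Slc6a18 stood at 1.12% and 1.65%, Slc7a13 at 1.76% and 2.26% and Slc3a1 at 1.79% and 1.26%. Slc7a7 stood at 2.71% and 3.21%, Slc7a9 at 4.50% and 2.34% and Slc6a19 at 5.72% and 5.10%. By library, Kap was at 2%, 1.23% and 2.32% in distal nephron cells, and the order of the carriers against Miox and Gpx3 differed between libraries. Gpx3 stood at 19.4% in intercalated cells and 3.79% in thick ascending limb, so its distal percentage is not read as free RNA alone. How much of these levels is free RNA was not tested.

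Slc7a8 and Slc3a2 had distal levels at 60.5% and 45.7% of proximal ones. Slc7a8 was at 33.1, 46.2 and 65.9 CPM in proximal cells and at 27.4, 12.9 and 32.6 in distal nephron cells. Its proximal over distal ratio was 1.21, 3.57 and 2.02, with intervals of 0.851 to 1.77, 1.73 to 8.88 and 1.63 to 2.55, so the control cells did not differ beyond counting error. Within the distal nephron, Slc7a8 was at 49.2 and 43.8 CPM in principal cells of the control and platform 60 min libraries, the platform 15 min library having 10 such cells with no UMI of the gene. In thick ascending limb it was at 9.56, 18.7 and 25. Slc3a2 was at 88.9, 130 and 132 CPM in proximal and 60.6, 55.5 and 53.8 in distal nephron cells, a ratio of 1.47, 2.35 and 2.46 with intervals of 1.16 to 1.88, 1.64 to 3.48 and 2.08 to 2.93. Without the control library both genes pass 2-fold and the count becomes 8 of 8. No share of all genes is given for the platform libraries alone, so this count is not set against one.

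The blood-side genes were also found outside the nephron. Slc3a2, which serves many cell types, was at 309, 297 and 381 CPM in macrophages, 292, 301 and 281 in endothelial cells and 246, 170 and 407 in T cells. All of these pooled levels exceeded the level in all proximal cells of the same library. Slc7a7 was at 23.9, 38.1 and 29.8 CPM in macrophages and 8.12, 17.4 and 11.7 in endothelial cells. Slc7a8 was at 25.3, 17.4 and 24.5 in macrophages. In macrophages the pooled levels were 23.8% of the proximal level for Slc7a7 and 51.5% for Slc7a8, against 1.40% for Kap, 1.82% for Miox and 3.19% for Gpx3. Pooled over the libraries, Slc3a2 was at 254 CPM in dendritic, 162 in B, 322 in NK and 72.2 in fibroblast and mesangial cells. Slc7a7 was at 12.6 in dendritic and 8.59 in B cells, and Slc7a8 at 6.89 and 2.95. In B cells these were 7.29% and 6.20% of the proximal level, beside 6.75% for Slc6a19 and 5.24% for Gpx3. In dendritic cells they were 10.7% and 14.5%, beside 0.619% and 2.16%. The part of free RNA in these levels was not tested. The other 5 carriers lay between 0.765 and 9.38 CPM over the endothelial, macrophage, dendritic, B and T cell gates.

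The platform was compared with the control to ask how dissociation alters what a library holds. In whole libraries, 6 of 8 carriers were higher by more than 2-fold in the platform 15 min library than in the control, against 2.13% of 13316 genes. In either direction 27.6% of these genes passed 2-fold, 283 higher and 3393 lower. The median log2 ratio was 1.13 over the carriers and -0.37 over all genes. Slc6a18 was at 25.3, 66.7 and 19.3 CPM in the 3 libraries, and its 15 min ratio was 2.64 (95% interval 2.45 to 2.84). Slc7a13 was at 142, 345 and 101, and its ratio was 2.43 (95% interval 2.36 to 2.51). For both, the platform 15 min library was highest and the platform 60 min library lowest, with no overlap. The ratios of Slc6a19, Slc7a7, Slc7a9 and Slc3a1 were 2.26, 2.02, 2.13 and 2.63. With all deposited cells, or with no upper limit on genes, Slc7a9 and Slc7a13 no longer passed 2-fold and the count was 4. Slc7a8 was at 25.6, 43.0 and 33.7, a 15 min ratio of 1.68 (95% interval 1.55 to 1.82). Slc3a2 was at 155, 136 and 228, a ratio of 0.879 (95% interval 0.849 to 0.910), and its direction turned under some other choices of cells and scaling, with ratios of up to 1.27.

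At 60 min, 0 of 8 carriers passed 2-fold in whole libraries, against 9.57% of 14121 genes. The median log2 ratio was -0.12 over the carriers and 0.22 over all genes. The whole-library ratio was 1.47 for Slc3a2, 1.31 for Slc7a8 and 1.19 for Slc6a19, and 0.710 for Slc7a13, 0.761 for Slc6a18. It was 0.774 for Slc7a9, 0.800 for Slc3a1 and 1.06 for Slc7a7, and these 3 changed side under other choices of cells or scaling. Both platform comparisons share the control library.

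Cell type markers moved with these whole-library values. The 7 proximal tubule markers, all present, summed to 3984, 8567 and 3001 CPM, led by Slc34a1 at 1580, 4148 and 1286. The 7 endothelial markers, all present, summed to 971, 408 and 2693 CPM, led by Plvap in both 60 min libraries and Emcn in the platform 15 min library. The 5 macrophage markers, all present and led by C1qb, summed to 2420, 201 and 2283. The part of cell type make-up in the whole-library ratios was not tested.

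Inside proximal tubule cells, 0 of 8 carriers passed 2-fold at either time, against 1.47% of 10908 genes at 15 min and 5.06% of 10544 at 60 min. The median log2 ratio at 15 min was 0.54 over the carriers and -0.21 over all genes, and at 60 min it was 0.41 and 0.09. With mitochondrially encoded genes left out of the scaling, the median of all genes moved from -0.21 to -0.06 at 15 min in these cells and from -0.37 to -0.21 in whole libraries. At 15 min the 8 ratios ran from 1.35 for Slc7a9 to 1.71 for Slc6a18. At 60 min they ran from 1.04 for Slc7a13 to 1.99 for Slc7a8. Slc7a8 was at 33.1, 46.2 and 65.9 CPM, a 60 min ratio of 1.99 (95% interval 1.81 to 2.19). It passed 2-fold, at 2.06, when mitochondrially encoded genes were left out of the scaling. Slc6a19 was at 86.5, 125 and 155, a 60 min ratio of 1.79 (95% interval 1.69 to 1.90), and Slc7a7 at 87.0, 122 and 136, a ratio of 1.56 (95% interval 1.47 to 1.66). The 60 min ratio of Slc7a13, at 1.04 (95% interval 0.996 to 1.08), changed side under other choices.

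Segment make-up of the proximal cells also differed between the libraries. S1 cells made up 24.0%, 30.2% and 38.3% of proximal cells, and S3 cells 26.2%, 25.5% and 19.6%. The 4 S1 markers, all present in proximal cells and led by Spp2, summed to 467, 723 and 836 CPM. The 6 S3 markers, all present and led by Acsm3, summed to 379, 409 and 329. The sum followed Acsm3, which was at 255, 245 and 159 CPM, while 5 of the 6 S3 markers were higher in the platform 60 min library than in the control. The part of segment make-up was not tested, and ratios inside each segment, chosen after seeing the data, are given next.

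Inside S1 cells at 15 min, 1 of 8 carriers passed 2-fold, against 1.46% of 9446 genes. It was Slc6a18, with 12 UMIs in the control and 87 in the platform library and a ratio of 2.22 (95% interval 1.21 to 4.45). The other ratios at 15 min ran from 1.30 for Slc7a8 to 1.52 for Slc3a1 and Slc7a13. The ratio of Slc6a18 was 1.97 with all deposited cells or with no upper gene limit, where Slc7a13 passed 2-fold, and 1.60 as a mean over cells. With thinned cells or a minimum of 200 UMIs, Slc6a18 had too few UMIs to be measured. At 60 min, 0 of 7 measured carriers passed in S1 cells, against 3.40% of 8851 genes, with ratios from 1.05 for Slc7a9 and Slc3a2 to 1.30 for Slc7a8. Under other choices the S1 ratio changed side for Slc7a13 at both times and for Slc7a9 and Slc3a2 at 60 min. Slc6a19 in S1 cells had ratios of 1.46 (95% interval 1.37 to 1.56) at 15 min and 1.29 (95% interval 1.20 to 1.39) at 60 min. In S3 cells, 0 of 8 passed at 15 min, against 2.43% of 8931 genes, and 0 of 7 at 60 min, against 2.62% of 7708. Slc3a1 had the highest S3 ratios, 1.82 (95% interval 1.67 to 1.99) at 15 min and 1.67 (95% interval 1.5 to 1.86) at 60 min. It passed 2-fold with thinned cells at both times, and at 15 min without mitochondrially encoded genes. Slc7a13 in S3 cells had ratios of 1.51 (95% interval 1.45 to 1.58) and 1.59 (95% interval 1.51 to 1.68). Slc7a9 had an S3 ratio of 0.894 (95% interval 0.731 to 1.09) at 60 min, and its S3 direction changed under other choices at both times, as did that of Slc6a19 at 15 min. Mitochondrial shares moved as well, at 17.7%, 25.5% and 18.9% in S1 cells and 12.5%, 21.1% and 17.5% in S3 cells, and their part was not tested.

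**Figure D2:**
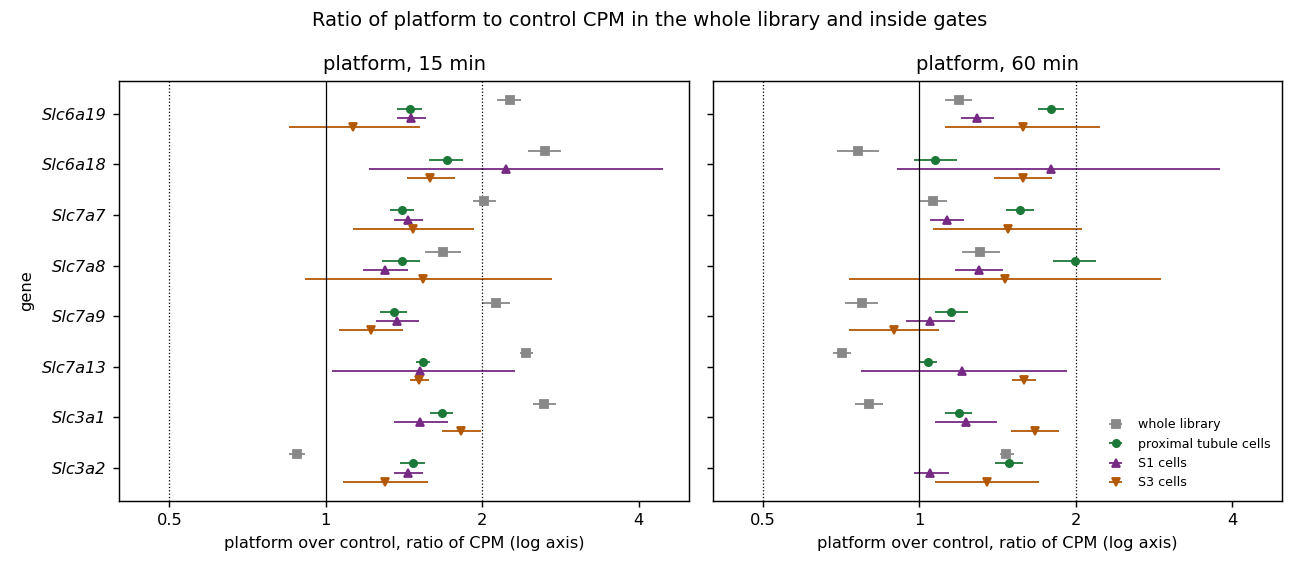
Ratio of platform over control levels (log axis, no unit) of the 8 carriers at 15 min and at 60 min in whole libraries, proximal tubule cells, S1 cells and S3 cells, with exact 95% intervals as bars that cover counting error. Whole-library ratios at 15 min pass 2 for 6 carriers, while inside proximal tubule cells none does at either time.

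A list of 28 other amino acid transport genes and helper proteins was followed in the same way. In S1 against S3 cells, 11 of the 28 were measured, of which 4 were higher in S1 by more than 2-fold in each library and 0 in S3. Slc6a13 was higher in S3 by 1.97, 2.45 and 3.42-fold and Slc15a2 by 1.88, 1.90 and 2.63-fold, so not past 2-fold in each. Genes short of 50 UMIs in any library were not measured. Among them, Slc38a3 and Slc1a4 were higher in S3 in each library, and Slc7a2 and Slc38a4 in S1. Of all 7958 genes measured there, 10.8% passed 2-fold, 512 higher in S1 and 344 in S3. Slc43a2, a carrier of large neutral amino acids, was at 73.2, 103 and 106 CPM in S1 cells and 8.35, 14.4 and 14.7 in S3 cells. Slc16a10, the aromatic amino acid carrier of the blood side, was at 30.3, 39.5 and 39.9 against 3.02, 4.92 and 5.82. The others were the lysosomal and luminal proton-coupled carrier Slc36a1, at 22.9, 30.3 and 36.4 against 9.06, 11 and 15.4, and the neutral amino acid carrier Slc38a2, at 22.5, 19.1 and 29.4 against 5.33, 3.85 and 8.85. Tmem27, the helper protein that brings Slc6a19 and related carriers to the brush border, did not pass 2-fold, at 1307, 1838 and 1294 in S1 cells and 800, 1201 and 1002 in S3 cells. Proximal cells exceeded distal nephron cells past 2-fold in each library for 9 of 13 measured genes of the list, among them Tmem27 and the glutamate carrier Slc1a1. The 2 measured genes lower in proximal cells were Slc43a2 and Slc38a2. Slc1a5, not measured, was at 0.262, 0.142 and 0.890 CPM in proximal and 48.2, 57.3 and 53.0 in distal nephron cells. Slc38a3, also not measured, was higher in proximal cells in each library. Of all 9466 genes, 12.6% (1188) were higher in proximal cells and 1486 lower, so the share lower was near that of all genes. With counts of 0 read as 3 counts, a choice made after seeing the data, 7 of 13 were higher, without Slc6a20a and Slc1a4, against 10.2% of the 9466 genes (967).

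In whole libraries at 15 min, 9 of 23 measured genes of that list were higher than in the control by more than 2-fold and 7 lower, against 2.13% and 25.5% of all genes, so the share lower was near that of all genes. Those higher included Tmem27, Slc1a1, Slc6a20a, Slc6a20b, Slc38a3, Slc6a13, Slc7a2 and Slc38a4, and the 7 lower were Slc7a1, Slc7a5, Slc7a6, Slc7a11, Slc1a5, Slc38a1 and Slc38a2. At 60 min 2 of 24 were higher, Slc7a2 and Slc38a4, and 0 lower, against 9.57% of all genes past 2-fold either way. Inside proximal cells 1 of 17 was higher at 15 min, Slc38a4 at 2.08-fold on 9 and 55 UMIs, and 1 of 16 at 60 min, Slc7a2, against 1.47% and 5.06% of all genes. The level of Slc7a2, a carrier of basic amino acids, was 0.733 CPM in control and 3.14 in platform 60 min proximal cells, a ratio of 4.28 (95% interval 2.36 to 8.30). Slc38a4 and Slc7a2 were also the genes past 2-fold in S1 cells, 1 of 14 at 15 min and 1 of 12 at 60 min respectively, against 1.46% and 3.40% of all genes. In S3 cells 0 of 15 passed at 15 min, against 2.43%.

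Likeness between genes was described by Pearson correlation of log2 levels over 19 profiles of a gate in a library. The profiles were of S1, middle and S3 cells and of the distal nephron gates, so r includes the contrast of proximal with distal cells. A high r can thus join genes that differ along the proximal tubule. Slc7a9 and Slc3a1, for example, ran in opposite directions between S1 and S3. The profiles share libraries, cells of 1 source mouse and free RNA, so the values are descriptions. Among the carriers the closest pairs were Slc6a18 with Slc7a13 (r of 0.94), Slc7a9 with Slc3a1 (0.90), Slc7a7 with Slc7a9 (0.89) and Slc6a19 with Slc7a7 (0.88). Slc7a8 went with Slc3a2 (0.83) and ran against Slc7a13 (-0.70). Among 9332 other genes, those most like Slc6a19 were Gldc, of the glycine cleavage system, at 0.923 and Prodh2 at 0.920. Slc6a18 was closest to Stra6l (0.984), BC035947 (0.980) and Kap (0.978), and Slc7a13 to Frzb (0.978), Gm48281 (0.976) and Apoh (0.973). Slc3a1 was closest to Slc22a22 (0.986), Fads3 (0.983) and Ugt2b38 (0.981), and Slc7a9 to Slc22a28 (0.971), Tinag (0.970) and Clic5 (0.967). The nearest genes of Slc7a7 were Slc16a14 (0.959), Tfpi2 (0.957) and Nsdhl (0.957). Slc7a8 had Angpt1 (0.841), Epb41l3 (0.824) and Cxxc5 (0.817), and Slc3a2 had Gm36372 (0.877), Col8a1 (0.876) and 4921539H07Rik (0.866).

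The genes are placed here on GRCm38, by GENCODE M21. Slc6a18 (ENSMUSG00000021612) lies at 13:73661752-73678023 on the minus strand. Slc6a19 (ENSMUSG00000021565) lies at 13:73679745-73704865 on the minus strand, 1721 bases away, so the luminal neutral carriers with opposite segment patterns are neighbors. Slc7a7 (ENSMUSG00000000958) lies at 14:54369442-54417780 on the minus strand. Slc7a8 (ENSMUSG00000022180) lies at 14:54722209-54781946 on the minus strand, 304 kb away. Slc7a9 (ENSMUSG00000030492) lies at 7:35448796-35466036 on the plus strand. Slc7a13 (ENSMUSG00000041052) lies at 4:19818725-19842218 on the plus strand. Slc3a1 (ENSMUSG00000024131) lies at 17:85028376-85064236 on the plus strand. Slc3a2 (ENSMUSG00000010095) lies at 19:8706882-8723369 on the minus strand. Other genes overlap 3 of the carriers on the opposite strand, Slc6a19os by 5040 bases at Slc6a19, Oxa1l by 232 bases at the 3′ end of Slc7a7 and Prepl by 767 bases at the 3′ end of Slc3a1.

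RefSeq promoter sequences on GRCm38.p6 matched 6 of the 8 carriers with 11 windows, and Slc6a18 and Slc7a13 had none. The windows of Slc6a19 (13:73692637-73692886) and Slc3a2 (19:8713898-8714147) lie inside the gene spans given above, away from their 5′ ends. After the data were seen, the 250 bases before each start were searched on both strands for 5 motifs of liver and kidney factors and of the TATA type. GTTAAT was in 6.43% of all 32851 promoters and in 1 of the 11 windows, of Slc7a7. GTTAAT followed by any base and then ATTAAC, a motif that contains GTTAAT, was in 0.00913% of all and in none of the 11. CAAAGTCCA was in 0.384% of all and in 1 of the 11, that of Slc3a1, at 39 to 31 bases before the start. CAAAGT, which lies within CAAAGTCCA, was in 12.6% of all and in 2 of the 11, that of Slc3a1 and another window of Slc7a7. TATAAA was in 12.4% of all and in 1 of the 11, again Slc3a1. A match describes letters in the window and is not evidence of a bound site. A pair of windows that hold a match and no annotated exon is shown 5′ to 3′, for a luminal and a blood-side carrier, with CAAAGTCCA in capitals in Slc3a1 (17:85028097-85028346, plus strand) and GTTAAT in Slc7a7 (14:54409473-54409722, minus strand).
Slc3a1: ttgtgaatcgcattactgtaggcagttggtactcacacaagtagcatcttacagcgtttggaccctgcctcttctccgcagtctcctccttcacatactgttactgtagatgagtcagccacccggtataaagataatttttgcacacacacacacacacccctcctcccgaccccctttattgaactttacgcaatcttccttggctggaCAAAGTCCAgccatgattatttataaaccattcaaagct
Slc7a7: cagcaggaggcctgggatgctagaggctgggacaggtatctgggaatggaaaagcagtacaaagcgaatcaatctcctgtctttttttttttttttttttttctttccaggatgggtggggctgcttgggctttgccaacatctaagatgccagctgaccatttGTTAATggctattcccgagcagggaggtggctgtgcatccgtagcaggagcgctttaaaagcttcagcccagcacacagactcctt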

How the data were processed

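The authors deposited UMI counts per cell barcode, made with Cell Ranger 3.1.0 on mm10 and aggregated with read depth evened between libraries. The 8 genes and the gene lists were chosen with earlier results of these data known. With Python 3.11.15, numpy 2.4.6, scipy 1.17.1 and pandas 2.3.3, kidney cells with 200 to 3000 genes and at most 50% mitochondrial UMIs were kept (24212 of 34034). Doublets were removed only through the gene limit. Cells were gated by relative marker scores, with rules written after marker data were seen. A list of 4 thin limb markers was left out. UMIs were summed per gate and library and scaled to 1000000 UMIs (CPM). A gene was measured with at least 50 UMIs over a comparison and called past 2-fold. With 1 library per condition no test was run. Named genes are the 8 carriers, the listed transporters past 2-fold, and the 3 genes most correlated with each carrier over profiles of at least 20 cells, among genes with at least 200 UMIs that are not markers, on log2 of the level plus 1. Some of the results for named genes are not reported. Alternatives changed the cells kept, scaling, depth, fold, minimum and gates. The methods were tested on simulated data. Tumor cells kept had 200 to 4000 genes and at most 25% mitochondrial UMIs. Figures were drawn with matplotlib 3.10.9.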

Additional observations from a re-analysis of the deposited data

Results flagged for a closer look

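Some of the carriers were also found in the mammary tumor libraries, which the comparisons above do not use. With the tumor libraries in the order control 60 min, platform 15 min and platform 60 min, Slc7a7 was at 26.3, 30 and 40.5 CPM in 5736, 5802 and 6024 kept cells. Its platform over control ratio was 1.14 at 15 min (95% interval 1.06 to 1.23) and 1.54 at 60 min (1.44 to 1.65). Slc3a2 was at 377, 304 and 393 CPM, a ratio of 0.806 at 15 min and 1.04 at 60 min (1.02 to 1.06). Slc7a7 at both times and Slc3a2 at 60 min thus lay above the tumor control, in 1 library each, and these differences were not tested. Slc7a8 moved in opposite directions in the tissues. Its whole-library ratio was 1.68 at 15 min and 1.31 at 60 min in the kidney, and 0.479 and 0.918 in the tumor, where it was at 22.5, 10.8 and 20.7 CPM. The difference between the tissues was not tested. The other 5 carriers had at most 11 UMIs in any tumor library.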

How the results depend on the processing

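No paired analysis was possible because there is 1 library per condition. Per the study the conditions of a tissue came from the same source mouse, and this matched set was not repeated in other animals. No called value reversed under any alternative. In proximal tubule cells, the count of carriers past 2-fold at 60 min became 1 (Slc7a8) when mitochondrially encoded genes were left out of the scaling. At a 1.5-fold limit it became 3 at 15 min and 3 at 60 min. Inside S1 and S3 cells, where alternatives were added after seeing the data, the S1 count of 1 at 15 min became 0 with a mean over cells, 0 with thinned cells and with a minimum of 200 UMIs, where Slc6a18 had too few UMIs, and 3 at 1.5-fold. The S3 count of 0 became 1 (Slc3a1) at 15 min without mitochondrially encoded genes, 1 at 15 min and 1 at 60 min with thinned cells, and 4 at 15 min and 4 at 60 min at 1.5-fold. The other counts run stayed within 1.5 times the reported count, also with counts of 0 set to 3 counts, which was added after seeing the data. In whole libraries at 15 min the count was 4 with all deposited cells or with no upper gene limit, and 7 at 1.5-fold. S1 against S3 gave 8 at 1.5-fold, proximal against distal gave 7 with thinned cells, and the shared top segment count was 8 with no gate margin. Leaving out 1 library at a time, which was added after seeing the data, the ranges were 7 to 7 for S1 against S3, 6 to 8 for proximal against distal and 7 to 8 for the top segment. Of 624 single-gene levels under alternatives, 301 stayed within their interval and 323 moved beyond it. Of 584 ratios, 399 stayed and 185 moved. S1 over S3 ratios of the 8 carriers changed side under no alternative run. With 1 library per condition the intervals cannot show how far animals differ. Distal nephron values rest on 114 cells in the platform 15 min library.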
